A study of Homo sapiens with 12 samples.

Results

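The genes examined were the 10 that encode the scaffold, the helicases and the cofactors of the cap-binding machinery: EIF4G1, EIF4G2, EIF4G3, EIF4A1, EIF4A2, EIF4A3, EIF4B, EIF4H, PABPC1 and PDCD4. They were chosen by name, as a list of eIF4F genes and their partners, and are 10 of the 58735 genes in the count table. Each symbol matched 1 Ensembl identifier, and all 10 passed the RNA-seq filter of at least 10 reads in at least 3 libraries.

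All 12 libraries came from 293T cells, a human embryonic kidney line, that carry a lentiviral, doxycycline-inducible 4EBP1-4A construct, in which 4 residues that kinases phosphorylate were changed to alanine. Transduced cells were sorted by GFP, so the construct is present in the controls too. Cells received DMSO or doxycycline (2 mg/ml) and then cycloheximide, and each condition has 3 RNA-seq and 3 Ribo-seq libraries. The sample labels give 12 h of treatment, the series text gives 2 h, and the study's own text also names a longer time for these libraries. No library of doxycycline-treated cells without the construct was analysed here, so induction of 4EBP1-4A and the drug itself cannot be told apart. The study's own text speaks of 3 biological replicates, but the labels do not say that replicates are separate cultures. The p-values measure the spread between these libraries, which may be technical.

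The mRNA cap is bound by eIF4E, which recruits the eIF4G scaffold, and eIF4G carries the RNA helicase eIF4A. Unphosphorylated 4EBP1 occupies the surface of eIF4E that eIF4G needs, so the scaffold and the helicase are lost from the cap. eIF4B and eIF4H stimulate the helicase, PDCD4 blocks it, and the poly(A)-binding protein PABPC1 links eIF4G to the tail of the mRNA.

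The induced gene was looked at first. EIF4EBP1 had 8501, 8244 and 8252 RNA-seq reads with DMSO and 12216, 13028 and 6778 with doxycycline. In CPM, the usual scaling of counts to a common library size (here reads on genes, adjusted by TMM factors), this was 161 ± 7.60 (SD, n = 3) and 269.5 ± 10.8 (SD, n = 3). The groups did not overlap, and the log2 fold change (doxycycline over DMSO) was 0.75 (SE 0.095). In edgeR's quasi-likelihood test the p was 7.02e-05 before adjustment and 0.326 after. Over the alternatives run the adjusted p was lowest in DESeq2's Wald test (8.55e-09) and highest when DMSO replicate 1 was left out (0.620). Without doxycycline replicate 3, described next, the log2 fold change was 0.75 (adjusted p 1.19e-05).

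Reads on genes numbered 21687906 to 57824136 per RNA-seq library and 210186 to 1002424 per Ribo-seq library. Doxycycline replicate 3 stood apart from the other RNA-seq libraries. Its reads on genes were 5.94% of all reads in the table, against 19.7% to 30.8% elsewhere, and 88.4% of its reads had more than 1 alignment. The mitochondrial share of its reads on genes was 5.76%, against 11.8% to 15.8%. Fold changes of the members are therefore given with and without it. Of the markers of the line, NEFL, NEFM, INA, VIM and NES each had at least 331 reads in every RNA-seq library. KRT5 and KRT14 of skin had 0 reads, KRT1 (skin), PTPRC and HBB (blood), DCN (fibroblast) and ALB (liver) had at most 13, and KRT10, COL1A1 and COL3A1 had 56 to 627.

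By counted reads, the 10 genes spanned a wide range of RNA-seq levels, with EIF4G2 at the top and EIF4A1 at the bottom. The place of EIF4A1 depends on how reads were assigned, as described below. Levels between genes were compared as CPM per kb of the reference transcript, in DMSO. EIF4G2 was at 288 ± 4.15 (SD, n = 3), EIF4G1 at 204 ± 11.2 (SD, n = 3), PABPC1 at 196 ± 12.9 (SD, n = 3) and EIF4A2 at 155 ± 7.11 (SD, n = 3). EIF4B was at 82.0 ± 2.11 (SD, n = 3), EIF4H at 59.7 ± 0.486 (SD, n = 3), EIF4A3 at 58.6 ± 0.504 (SD, n = 3) and EIF4G3 at 50.7 ± 1.28 (SD, n = 3). PDCD4 followed at 23.0 ± 1.13 (SD, n = 3) and EIF4A1 at 12.3 ± 0.923 (SD, n = 3). The libraries of EIF4G1 and PABPC1 overlapped. EIF4H and EIF4A3 were separated only from 59.1 to 59.0, a ratio of 1.02 between their means, and in every other pair of neighbours the DMSO libraries did not overlap and the means differed by a ratio of at least 1.15.

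**Figure D1:**
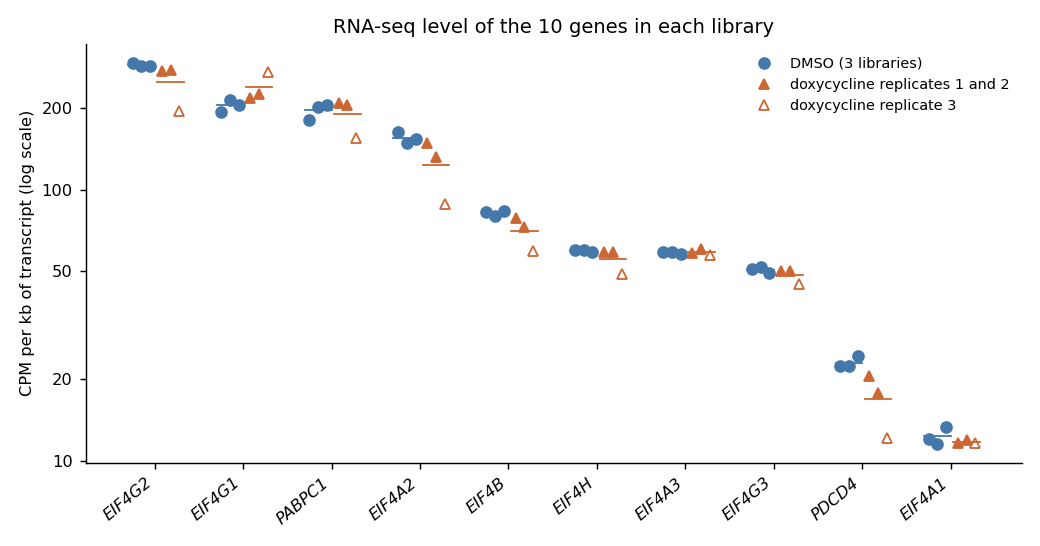
RNA-seq level of each gene in CPM per kb of its reference transcript (log axis), ordered by the DMSO mean. Circles are the 3 DMSO libraries, filled triangles doxycycline replicates 1 and 2, the open triangle doxycycline replicate 3, and lines the group means of 3 libraries; DMSO means run from 12.3 (EIF4A1) to 288 (EIF4G2).

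Some of these levels depend on how reads were assigned. All 1758 bases of the EIF4A1 reference transcript lie in exons of other genes of the same strand in the count table, 1467 in the readthrough gene SENP3-EIF4A1 and 1757 in the long noncoding RNA ENSG00000264772. Reads shared by several genes were set aside as ambiguous in the deposited counts, 1528626 to 3845554 per RNA-seq library, and SENP3-EIF4A1 itself had 6 to 27 reads. Setting reads aside can only lower a count, so the level of EIF4A1 may be understated and ratios over EIF4A1 overstated. How far is not known, so the level of EIF4A1 and every ratio with it are uncertain. Only uniquely aligned reads were counted, and windows of 31 bases that also occur in transcripts of other, non-overlapping genes made up 45.5% of the EIF4A1 transcript, 45.6% of EIF4B, 35.9% of PABPC1, 17.9% of EIF4H and 17.0% of EIF4A2. The share was 5.97% for EIF4A3, 3.19% for PDCD4 and 0.393% for EIF4G3, and no window of EIF4G1 or EIF4G2 was shared.

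No member was called in the RNA-seq comparison of doxycycline with DMSO, and neither was any other gene, the induced EIF4EBP1 included. The test called 0 of 20552 genes (0%) at an adjusted p under 0.05, with 1969 higher and 848 lower at an unadjusted p under 0.05. DESeq2's Wald test called 3 genes, none of them a member: EIF4EBP1 and the 7SL pseudogenes RN7SL494P and RN7SL15P. Adjusted p-values of the 10 members ran from 0.326 to 0.974 (edgeR's quasi-likelihood test, adjusted over all genes tested by Benjamini-Hochberg). Their log2 fold changes ran from -0.45 for PDCD4 to 0.22 for EIF4G1, with a median of -0.088 beside -0.035 over all genes tested. The fold change was below 0 for 8 of the 10 members and for 53.7% of all genes, and when libraries were scaled by their totals it was above 0 also for EIF4G3, EIF4A1, EIF4H and PABPC1. That scaling moved the median of all genes by 0.13 on the log2 scale.

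Among the scaffolds, EIF4G1 and EIF4G2 lay on opposite sides of their DMSO values. EIF4G1 (ENSG00000114867; GRCh38 chromosome 3, 184314495 to 184335358, + strand) encodes the main scaffold, which binds eIF4E at the surface that 4EBP1 competes for. Its level was 1041, 1161 and 1112 CPM with DMSO and 1172, 1221 and 1471 CPM with doxycycline. All doxycycline libraries were above all DMSO libraries, and replicate 3 was the highest. The log2 fold change was 0.22 (SE 0.116, adjusted p 0.326), and 0.11 without doxycycline replicate 3.

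EIF4G2 (ENSG00000110321; chromosome 11, 10797050 to 10808940, - strand) encodes a relative of eIF4G that lacks the eIF4E-binding part. It was at 1112, 1082 and 1088 CPM with DMSO and at 1042, 1048 and 738 CPM with doxycycline. All doxycycline libraries were below all DMSO libraries, but replicates 1 and 2 only narrowly. Its log2 fold change was -0.21 (SE 0.146, adjusted p 0.377), and -0.068 without doxycycline replicate 3. EIF4G3 (ENSG00000075151; chromosome 1, 20806292 to 21177285, - strand), the second scaffold that binds eIF4E, was at 327, 331 and 315 CPM with DMSO and 322, 322 and 288 CPM with doxycycline. Its groups overlapped, with a log2 fold change of -0.064 (SE 0.095), and -0.015 without doxycycline replicate 3.

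The 3 eIF4A genes encode DEAD-box RNA helicases. EIF4A1 and EIF4A2 encode the helicases of translation initiation, and EIF4A3 encodes a core protein of the exon junction complex, which is deposited on spliced mRNAs in the nucleus. The coding stretches around the DEAD box are shown because this box names the family and shows how close the 3 genes are. The codons of the box were searched in frame in GENCODE release 44 and are found once in each of the 3 genes and in 0.847% of 19831 coding sequences. Capitals mark them in these windows of 60 coding bases on GRCh38, EIF4A1 at chr17:7577061-7577120 (+ strand), EIF4A2 at chr3:186786169-186786228 (+ strand) and EIF4A3 at chr17:80139155-80139721 (- strand, across an intron).
EIF4A1: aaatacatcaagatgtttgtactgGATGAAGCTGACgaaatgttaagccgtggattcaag
EIF4A2: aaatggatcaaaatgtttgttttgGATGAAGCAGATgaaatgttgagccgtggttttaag
EIF4A3: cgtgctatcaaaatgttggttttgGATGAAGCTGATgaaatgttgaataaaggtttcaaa

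Over the whole coding sequence, EIF4A1 and EIF4A2 were identical at 76.6% of aligned bases, EIF4A1 and EIF4A3 at 64.9%, and EIF4A2 and EIF4A3 at 66.2%. The longest identical run between EIF4A1 and EIF4A2 was 20 bases, and none of the 3 shared a window of 31 bases with another. A uniquely aligned read of that length can therefore be assigned to 1 of the 3. EIF4G1 and EIF4G3, the pair of scaffolds, were identical at 60.5% of aligned coding bases.

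EIF4A2 had the second lowest fold change of the 10 genes. EIF4A2 (ENSG00000156976; chromosome 3, 186783205 to 186789897, + strand) was at 307, 280 and 291 CPM with DMSO and at 279.99, 249 and 167 CPM with doxycycline. The doxycycline libraries were below the DMSO libraries, the first of them by less than 1 CPM, and they overlapped with DESeq2's size factors or library totals. The log2 fold change was -0.33 (SE 0.184, adjusted p 0.330), and -0.15 (adjusted p 0.175) without doxycycline replicate 3.

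EIF4A1 (ENSG00000161960; chromosome 17, 7572824 to 7579006, + strand) had 1159, 1070 and 1145 reads with DMSO and 962, 969 and 517 with doxycycline. In CPM these were 21.2, 20.4 and 23.5 with DMSO and 20.5, 20.9 and 20.4 with doxycycline, and the groups overlapped. The log2 fold change was -0.075 (SE 0.108), and -0.070 without doxycycline replicate 3. EIF4A3 (ENSG00000141543; chromosome 17, 80134369 to 80147151, - strand) was at 148, 149 and 146 CPM with DMSO and 148, 152 and 145 CPM with doxycycline, a log2 fold change of 0.0055 (SE 0.090), and 0.018 without doxycycline replicate 3. Its 6 libraries lay closest together of the 10 genes in this comparison, and its groups overlapped.

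Both cofactors that stimulate the helicase had fold changes below 0. EIF4B (ENSG00000063046; chromosome 12, 53006282 to 53042215, + strand) was at 318, 307 and 323 CPM with DMSO and at 303, 280.3 and 229 CPM with doxycycline. All doxycycline libraries were below all DMSO libraries, and its log2 fold change was -0.22 (SE 0.124, adjusted p 0.330), or -0.12 without doxycycline replicate 3. EIF4H (ENSG00000106682; chromosome 7, 74174231 to 74197122, + strand) was at 153, 154 and 151 CPM with DMSO and at 152, 151 and 125 CPM with doxycycline. Its log2 fold change was -0.10 (SE 0.111), above 0 with library totals (0.034), and -0.017 without doxycycline replicate 3. Of the 6 libraries of EIF4H, only doxycycline replicate 3 lay outside 151 to 154 CPM.

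A 5′ terminal oligopyrimidine (TOP) tract, a C at the start followed by pyrimidines, marks many mRNAs of the translation machinery whose translation responds to mTOR and 4EBP1. RefSeq promoter sequences (GRCh38.p14) were at hand for 9 of the 10 genes. PABPC1 had no entry, so its start was not examined. The annotated start was a C followed by at least 4 more pyrimidines for EIF4A2 and EIF4B, and for 4.07% of all 35116 promoters, read on the sense strand only. The stretches from 25 bases before the start to 25 bases from it are shown for 2 genes. They are those of the 9 with such a start, and capitals mark the tract. EIF4A2 is at chr3:186783552-186783601 (+ strand) and EIF4B at chr12:53006431-53006480 (+ strand).
EIF4A2: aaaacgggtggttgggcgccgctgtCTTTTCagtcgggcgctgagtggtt
EIF4B: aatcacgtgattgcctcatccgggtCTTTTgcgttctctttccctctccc
The match describes these letters and not a site of control. Neither gene had enough Ribo-seq reads for a statement on its translation (0 and 4 reads in the 6 libraries).

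PDCD4, the inhibitor of eIF4A, had the lowest fold change of the 10 genes. PDCD4 (ENSG00000150593; chromosome 10, 110871795 to 110900006, + strand) had 4252, 4090 and 4125 reads with DMSO and 3369, 2875 and 1069 with doxycycline. In CPM this was 77.9, 77.9 and 84.7 with DMSO and 71.7, 62.1 and 42.2 with doxycycline. All doxycycline libraries were below all DMSO libraries, under each of the 3 scalings. The log2 fold change was -0.45 (SE 0.189, p 0.0467 before adjustment and 0.326 after, edgeR's quasi-likelihood test). Of all genes tested, 4.13% were lower at an unadjusted p under 0.05.

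Without doxycycline replicate 3, PDCD4 was the 1 member called, with a log2 fold change of -0.26 (SE 0.074, adjusted p 0.0401). That fit called 825 genes lower (4.03% of 20459) and 696 higher (3.4%), and the 1 member of 10 called lower stands beside that share. On GRCh38, 1277 of the 3481 bases of the PDCD4 transcript lie opposite exons of BBIP1, and whether counting used the strand is not stated. BBIP1 had 1111, 898 and 873 reads with DMSO and 721, 623 and 252 with doxycycline, with a log2 fold change of -0.51 (SE 0.174), and -0.36 (adjusted p 0.0332) without doxycycline replicate 3. The reference transcript of BBIP1 had a GC content of 35.6%. For transcripts up to 40% GC, the median log2 fold change of all genes was -0.39, and -0.19 without doxycycline replicate 3. The part of BBIP1 in the PDCD4 values was not tested.

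PABPC1 (ENSG00000070756; chromosome 8, 100685816 to 100722809, - strand) changed side with the libraries used. It was at 518, 576 and 587 CPM with DMSO and at 599, 587 and 445 CPM with doxycycline, so replicates 1 and 2 were among the high libraries and replicate 3 was the lowest of all. The log2 fold change was -0.044 (SE 0.136, adjusted p 0.852), and 0.079 (adjusted p 0.478) without doxycycline replicate 3.

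**Figure D2:**
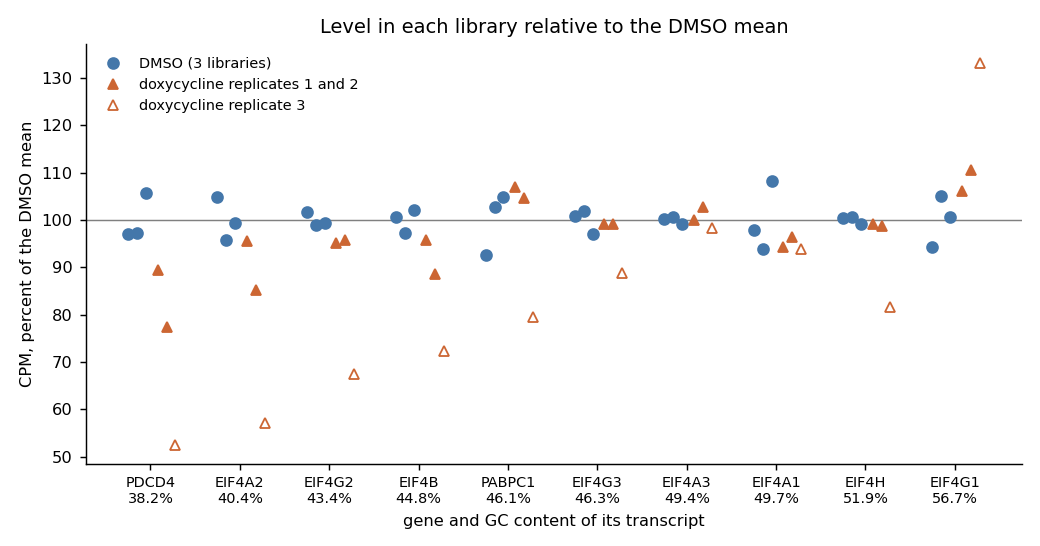
CPM of each gene in each RNA-seq library as a percentage of its DMSO mean, with genes ordered by the GC content of the reference transcript (percentage under the symbol). Circles are DMSO libraries, filled triangles doxycycline replicates 1 and 2, and the open triangle doxycycline replicate 3, which is the lowest library for PDCD4, EIF4A2, EIF4G2, EIF4B, PABPC1, EIF4G3, EIF4A3 and EIF4H and the highest for EIF4G1.

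In the count of groups that do not overlap, 4 members (EIF4G2, EIF4A2, EIF4B and PDCD4) had every doxycycline library below every DMSO library, and EIF4G1 had every one above. Over all genes tested, 20.8% lay below and 17.7% above in the same way. With 3 libraries against 3, the smallest p of the exact permutation test, two-sided, is 0.1, so this design cannot pass 0.05. The counts were also 4 and 1 with DESeq2's size factors, with EIF4H in place of EIF4A2, and 1 (PDCD4) and 2 (EIF4G1 and EIF4A3) with library totals.

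The order of the fold changes broadly followed the GC content of the transcripts, with EIF4H below 0 although genes of its GC content had a median above 0. Reference transcripts ranged from 38.2% GC for PDCD4 and 40.4% for EIF4A2 to 51.9% for EIF4H and 56.7% for EIF4G1. Short coding stretches of the genes at both ends show the contrast. Each is the first in-frame window of 60 coding bases within an exon whose GC content is nearest to that of its transcript, with G and C in capitals, EIF4G1 at chr3:184316150-184316209 (+ strand, 56.7% GC) and PDCD4 at chr10:110881244-110881303 (+ strand, 38.3% GC), both on GRCh38.
EIF4G1: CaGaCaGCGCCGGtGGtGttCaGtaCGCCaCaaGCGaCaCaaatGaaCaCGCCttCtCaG
PDCD4: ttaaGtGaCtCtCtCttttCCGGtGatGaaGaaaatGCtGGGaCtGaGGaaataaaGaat

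Over the 10 genes, Pearson's r between GC content and the log2 fold change was 0.93 (Spearman's rho 0.78). Across the 20396 genes with a GC content (99.2% of those tested), r was 0.62 (rho 0.67), and 0.46 without doxycycline replicate 3. These are descriptions across genes, which share the 6 libraries and their base composition. Doxycycline replicate 3 differed from the other doxycycline libraries along the same order. Relative to the mean of replicates 1 and 2 (log2 of CPM + 0.5), it was at -0.66 for PDCD4, -0.66 for EIF4A2, -0.50 for EIF4G2, -0.41 for PABPC1, -0.35 for EIF4B and -0.28 for EIF4H. It was at -0.16 for EIF4G3, -0.044 for EIF4A3 and -0.021 for EIF4A1, and EIF4G1 alone was above 0 (0.30). Over all genes, that value correlated with GC content with r = 0.68. The median log2 fold change of all genes was -0.39 for transcripts up to 40% GC, -0.23 from 40% to 45%, -0.080 from 45% to 50%, 0.068 from 50% to 55%, 0.20 from 55% to 60% and 0.38 above 60%.

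A fit with a smooth curve on GC content removed from each library, added after seeing the data, brought 7 of the 10 members closer to 0. EIF4H (-0.10 before), PABPC1 (-0.044 before) and EIF4A3 (0.0055 before, 0.028 after) moved away from it. The log2 fold changes of the members then ran from -0.15 (EIF4H) to 0.075 (PABPC1), with adjusted p-values of 0.363 or more. PDCD4 was at -0.055 (SE 0.068), EIF4A2 at -0.026 (SE 0.048), EIF4G2 at -0.0023 (SE 0.050) and EIF4G1 at 0.036 (SE 0.052). With the curve removed and without doxycycline replicate 3, PDCD4 was at -0.088 (SE 0.055, adjusted p 0.417) and was not called, and the members ran from -0.088 to 0.11. EIF4EBP1 was at 0.42 (adjusted p 0.301) in the first of these fits and at 0.57 (adjusted p 0.000274) in the second.

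**Figure D3:**
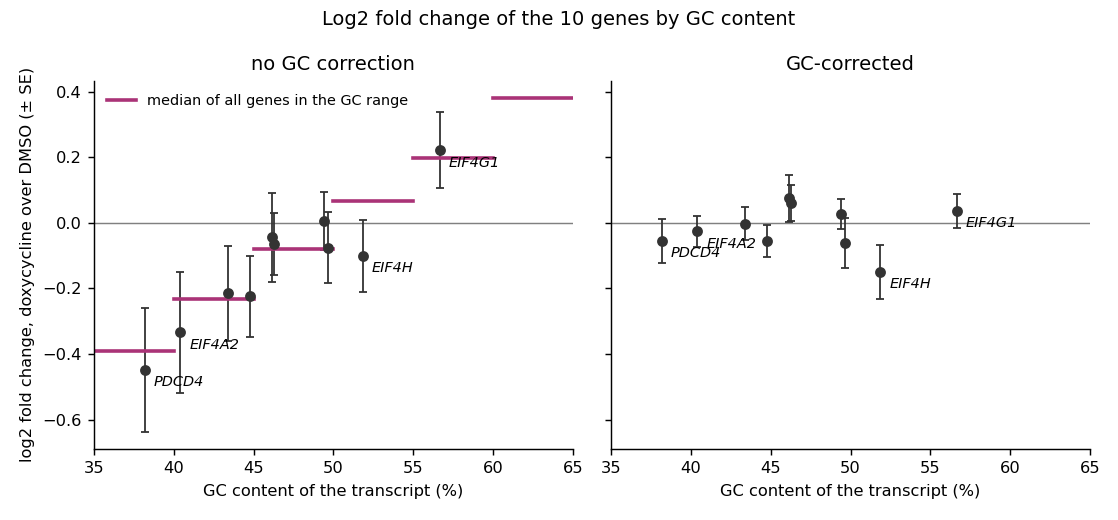
Log2 fold change (doxycycline over DMSO) of the 10 genes with its standard error against the GC content of the reference transcript, from the fit without (left) and with (right) a GC correction. Horizontal bars on the left are medians of all genes in 6 ranges of GC content, from -0.39 up to 40% GC to 0.38 above 60% GC, with the outer ranges drawn only within the axis. On the left the members run from -0.45 (PDCD4) to 0.22 (EIF4G1), with EIF4H (-0.10) below 0 where its bar (0.068) is above, and on the right they lie between -0.15 and 0.075.

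Ratios of reads of 2 genes within a library do not depend on the scaling between libraries, and 4 were compared. EIF4G3 relative to EIF4G1, the ratio of the 2 scaffolds that bind eIF4E, was 0.314, 0.285 and 0.283 with DMSO and 0.274, 0.263 and 0.196 with doxycycline. EIF4G2 relative to EIF4G1 was 1.07, 0.932 and 0.978 with DMSO and 0.889, 0.858 and 0.502 with doxycycline. PDCD4 relative to EIF4A1, inhibitor over helicase, was 3.67, 3.82 and 3.60 with DMSO and 3.50, 2.97 and 2.07 with doxycycline. In these 3 ratios every doxycycline library was below every DMSO library (exact permutation test, two-sided, p = 0.1, adjusted 0.133 over the 4 ratios).

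EIF4A2 relative to EIF4A1 was 14.5, 13.8 and 12.4 with DMSO and 13.7, 11.9 and 8.20 with doxycycline, and the groups overlapped (exact permutation test, p = 0.2). The log2 differences were -0.28 (SE 0.161) for EIF4G3 to EIF4G1, -0.45 (SE 0.273) for EIF4G2 to EIF4G1, -0.41 (SE 0.226) for PDCD4 to EIF4A1 and -0.29 (SE 0.230) for EIF4A2 to EIF4A1. Without doxycycline replicate 3 they were -0.13, -0.18, -0.20 and -0.081. In each ratio the first gene has the lower GC content.

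**Figure D4:**
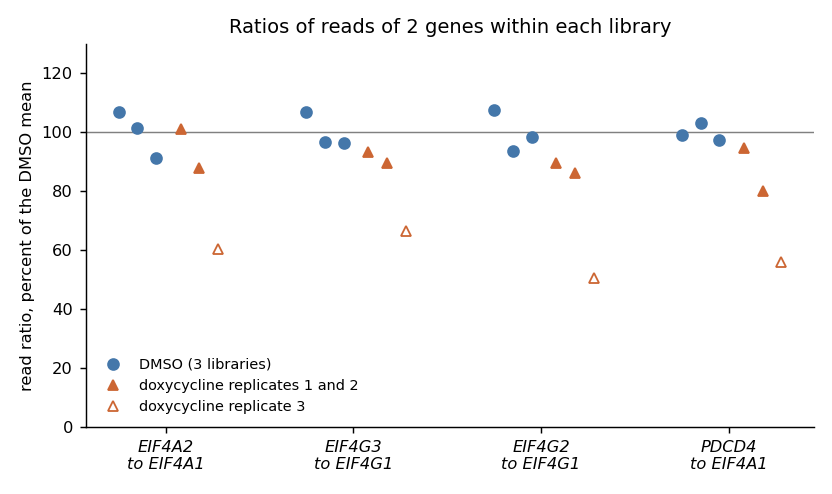
Read ratio of 2 genes within each RNA-seq library, as a percentage of the DMSO mean of that ratio. Circles are DMSO libraries, filled triangles doxycycline replicates 1 and 2, and the open triangle doxycycline replicate 3, the lowest in all 4 ratios.

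Ribosome footprints of these genes were few, as they were for most genes. Across all genes, 233 to 497 per Ribo-seq library had 10 or more reads, against 18258 to 20881 per RNA-seq library. The 10 genes together had 55 Ribo-seq reads of 3638279 on genes (15.1 CPM over the pooled libraries, with no TMM scaling), against 1113589 RNA-seq reads (3990 CPM in the same way). EIF4G1 had 0, 16 and 1 footprint reads with DMSO and 4, 1 and 0 with doxycycline. EIF4G2 had 0, 11 and 0 with DMSO and none with doxycycline. For both genes DMSO replicate 2 held most of the reads, and that library held 36 of the 55.

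Among the rest, EIF4H had 5 reads in DMSO replicate 2 and 4 in doxycycline replicate 1, EIF4B had 4 in DMSO replicate 3, and EIF4G3 had 1 in each DMSO library. EIF4A3 had 1 read in DMSO replicate 2 and 2 in doxycycline replicate 3, PDCD4 had 2 in DMSO replicate 2, and EIF4A1 had 1 in doxycycline replicate 3. EIF4A2 and PABPC1 had 0 reads in all 6 libraries, although both were among the 4 highest members in RNA-seq per kb. A count of 0 allows up to 3 reads, which covers counting error only. Over the 6 Ribo-seq libraries, 3 reads correspond to 2.99 to 14.3 CPM, here with no TMM scaling.

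Only EIF4G1 and EIF4G2 had the 10 Ribo-seq reads needed to enter the Ribo-seq and TE tests. TE, or translation efficiency, sets footprints against mRNA of the same gene, and was tested as the interaction of assay and treatment over the 12 libraries. The Ribo-seq test called 0 of 1607 genes (0%; 59 higher and 88 lower at an unadjusted p under 0.05, and 6 called by DESeq2's Wald test). The TE test called 2 of 1334 (0.15%), SYNJ2BP and HCG11, both lower and named here after their values were seen. With the replicate number as a block, the TE test called 0 genes. Neither member was called. EIF4G1 had a log2 fold change of -1.36 in Ribo-seq (SE 1.75, adjusted p 0.883) and of -1.64 in TE (SE 1.83, adjusted p 0.715). The values were -2.84 and -3.38 without doxycycline replicate 1, and -0.79 and -0.93 without doxycycline replicate 3. For EIF4G2, with 0 reads in every doxycycline library, the adjusted p was 0.479 in Ribo-seq and 0.250 in TE, and no fold is given. Without DMSO replicate 2, neither gene reached the filter, so no change in the TE of either could be detected at this depth.

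The partner list held 28 other genes that act on or with these proteins, and all 28 were tested in RNA-seq. None was called, 3 had an unadjusted p under 0.05 (EIF4E, NOM1 and CTIF), and DESeq2's Wald test called none. Of all 20552 genes tested, 1969 were higher and 848 lower at an unadjusted p under 0.05. The fold change was above 0 for 12 and below 0 for 16, with a median of -0.10. Over all genes tested, 53.7% were below 0 and the median was -0.035. The 5 of largest size were CTIF, which binds the nuclear cap complex (0.55, SE 0.177), the nuclear poly(A)-binding protein gene PABPN1 (0.54, SE 0.251), the S6 kinase gene RPS6KB1 (-0.48, SE 0.247), the exon junction gene MAGOHB (-0.47, SE 0.259) and PAIP2, an inhibitor of PABP (-0.46, SE 0.221), each with an adjusted p of 0.326 to 0.329. Without doxycycline replicate 3 all 5 were smaller in size: 0.33 for CTIF, 0.17 for PABPN1, -0.24 for RPS6KB1, -0.21 for MAGOHB and -0.24 for PAIP2. The GC content of the reference transcript was 59.5% for CTIF, 54.3% for PABPN1, 37.2% for RPS6KB1, 36.9% for MAGOHB and 39.0% for PAIP2. With GC correction and all libraries, the log2 fold changes were 0.27, 0.41, -0.065, -0.053 and -0.12 in the same order, and none was called.

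Without doxycycline replicate 3, 2 of the 28 partners were called higher and 2 lower. Of all 20459 genes tested in that fit, 3.4% were called higher and 4.03% lower. NOM1, which has an eIF4G-like domain and acts in the nucleolus, was at 0.26 (adjusted p 0.0271) and CTIF at 0.33 (adjusted p 0.0251). EIF4E, the cap-binding protein gene, was at -0.30 (adjusted p 0.0447), and the helicase gene DDX3X at -0.23 (adjusted p 0.0459). With GC content also corrected, EIF4E was at -0.041 (adjusted p 0.784) and DDX3X at -0.10 (adjusted p 0.246), CTIF was at 0.20 (adjusted p 0.0607), and NOM1 was at 0.27 (adjusted p 0.0122). That fit called 5 partners: NOM1, EIF3D (0.16) and DHX36 (0.19) higher, and MKNK2 (-0.19) and RPS6KB2 (-0.21) lower. It called 406 of all genes tested higher (1.98%) and 398 lower (1.95%), and no member. In Ribo-seq, 3 partners had 10 or more reads in the 6 libraries, MKNK2 (777), MKNK1 (64) and DDX3X (22).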

How the data were processed

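RNA-seq and Ribo-seq libraries of 293T 4EBP1-4A cells, 3 per assay and condition, were grouped by the sample labels. The deposited tables hold unnormalized counts of reads for each gene. To make them, the authors trimmed the linker from Ribo-seq reads, removed ribosomal RNA reads, aligned to GRCh38 with STAR and kept unique alignments on exons. The submitters' processing notes name GRCh37 and the labels Ensembl release 75, and use of strand is not given in the sources used here. Reads not counted on a single human gene (69.2% to 94.1% in RNA-seq, 97.1% to 99.1% in Ribo-seq) and 186 rows that name no human gene stayed out of library sizes and tests. These reads include those with several alignments and those shared by several genes. The deposited table of the authors' TE analysis (dispersion, TE, p-values, q-values and log2 values) was used only to pair identifiers with symbols.

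TMM factors were computed within each assay over all genes (edgeR 4.0.16, limma 3.58.1, R 4.3.3). Doxycycline was compared with DMSO by edgeR's quasi-likelihood F-test with Benjamini-Hochberg adjustment at 0.05. RNA-seq genes needed 10 or more reads in 3 or more libraries, and Ribo-seq and TE genes a sum of 10 or more in each assay. The SE of a log2 fold change is its size divided by the square root of F. Depth was 21687906 to 57824136 reads on genes per RNA-seq library and 210186 to 1002424 per Ribo-seq library. Read ratios were tested by exact permutation of the libraries, two-sided. Transcripts, GC content and overlaps came from GENCODE release 44 on GRCh38 (58207 of 58735 genes matched), coding sequences were aligned with Biopython 1.88, and other steps used Python 3.11.15, numpy 2.4.6, scipy 1.17.1, pandas 2.3.3 and matplotlib 3.10.9. The tests were checked on simulated counts. These held no library of differing composition, such as doxycycline replicate 3, and no trend with GC content, so the check does not cover either.

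Named genes are all 10 members, EIF4EBP1, and of the partner list the called genes, or the 5 of largest log2 fold change where none was called. The members and lists were chosen with earlier results of these data known. Genes called without doxycycline replicate 3, BBIP1 and the PABPC paralogs were named after their values were seen. The alternatives were DESeq2 size factors, library totals, no filter, at least 60 reads, DESeq2's Wald test (1.42.0), edgeR's likelihood ratio test, the replicate number as a block and each library left out. TMM after the filter and the GC correction (lowess curve, span 0.3) were added after seeing the data.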

Additional observations from a re-analysis of the deposited data

How the results depend on the processing

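In RNA-seq, 0 genes were called, and under the alternatives 3 by DESeq2's Wald test, 12 by the likelihood ratio test, 0 to 1521 with 1 library left out (1521 without doxycycline replicate 3) and 804 with GC correction and without doxycycline replicate 3; members called were 0, or 0 to 1 with a library left out (PDCD4 without doxycycline replicate 3). In Ribo-seq, DESeq2's Wald test called 6 genes against 0. The 2 TE calls became 10 with no filter, 70 with DESeq2's Wald test, 0 with the replicate block, and 0 to 1 with a replicate left out. No member was called in Ribo-seq or TE under any alternative run. The cause of these differences was not tested.

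Replicate numbers were not taken to pair the samples: deviations of same-numbered libraries correlated with r = 0.39, -0.36 and 0.023, and DMSO replicate 1 correlated best with doxycycline replicate 2 (0.41). With the replicate block, RNA-seq called 0 genes and 0 members, and the log2 difference of the EIF4G2 to EIF4G1 ratio was -0.45, the same as without it by construction. Apart from the 2 TE calls, the block changed no call.

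The sign turned for members near 0, none of them called. With library totals, EIF4G3 was at 0.076, EIF4A1 at 0.068, EIF4H at 0.034 and PABPC1 at 0.087. With GC correction, EIF4G3 was at 0.060 and PABPC1 at 0.075, and with GC correction and without doxycycline replicate 3, EIF4G2 was at 0.015, EIF4G3 at 0.017 and PABPC1 at 0.11. With 1 library left out, EIF4A1 ranged from -0.12 to 0.00047 (above 0 without DMSO replicate 3), EIF4A3 from -0.012 (without doxycycline replicate 2) to 0.018, and PABPC1 from -0.11 to 0.079 (above 0 without DMSO replicate 3, at 0.0036, and without doxycycline replicate 3). PDCD4, always below 0, ranged from -0.61 to -0.26. Ribo-seq depth limits any statement on translation of the 10 genes.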

Other observations

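PABPC1 has paralogs in the count table that were looked at after the members' values had been seen. PABPC4, which like PABPC1 encodes a cytoplasmic poly(A)-binding protein, had 13751, 13581 and 12271 RNA-seq reads with DMSO and 12446, 12511 and 5770 with doxycycline, and its log2 fold change was 0.00052 (SE 0.104, adjusted p 0.997), and 0.072 without doxycycline replicate 3. PABPC1L had 1600, 1795 and 1764 reads with DMSO and 1838, 1983 and 1208 with doxycycline, a log2 fold change of 0.38 (SE 0.130, adjusted p 0.326), and 0.30 (adjusted p 0.0441) without doxycycline replicate 3. PABPC4L was at -0.30 (SE 0.141, adjusted p 0.326), and -0.18 without doxycycline replicate 3. The GC content of the reference transcript was 58.9% for PABPC1L, 54.0% for PABPC4 and 33.6% for PABPC4L, the order of their fold changes. PABPC3 had 15 to 48 reads.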
